A study of Homo sapiens with 2 samples.

Results

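Molecular chaperones are the proteins that bind unfolded or partly folded polypeptides and keep them from aggregating. The members described here are the genes of the cytosolic and mitochondrial chaperone families on an expression array. They were taken by symbol: every probe whose single gene symbol starts with HSPA, HSPB, HSPD, HSPE, HSPH, HSP90A, DNAJ or BAG, except those of HSPA5, DNAJB9 and DNAJC3. This gave 126 of 30113 named probes and 80 of 20046 named genes. The rule uses no measured value. By prefix alone it also takes BAGE2 and BAGE5, which belong to a melanoma antigen family and are no chaperone genes, and a few members that work in the endoplasmic reticulum.

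The samples were 2 derivatives of the human monocytic leukaemia line THP-1, each measured on 1 single-colour Illumina array of total RNA. The derivative called shLY6E stably expresses a short hairpin RNA against LY6E, and the derivative called shCtrl expresses a scrambled hairpin. Both were grown in RPMI medium with serum, β-mercaptoethanol and puromycin at 400 ng/ml, and the labels do not say whether a derivative is 1 clone or a pool. With 1 array per group (n = 1) no difference below has a replicate check, a standard error or a p-value, and how far another culture of the same line would differ was not measured. In such bulk RNA, fewer cells expressing a gene and less RNA per cell cannot be told apart.

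The HSP70 proteins (HSPA genes) bind and release clients in a cycle driven by ATP. J-proteins (DNAJ genes) deliver clients and speed up the ATP step, and nucleotide exchange factors (the HSP110-type genes HSPH1, HSPA4 and HSPA4L, and several BAG genes) reset the cycle. HSP90 acts on later folding states, the small heat shock proteins (HSPB) hold aggregating clients, and HSPD1 with HSPE1 forms the mitochondrial folding chamber. Some members are made at all times. Others are switched on by the transcription factor HSF1, which binds heat shock elements, inverted repeats of nGAAn, when cells are heated or proteins misfold.

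The promoters of 5 members are shown because they carry the heat shock element, while the values of their genes, given further on, run from a slightly lower to a several-fold higher level in shLY6E. The first 3 are the members whose 250 bases before the gene start hold 3 alternating units of the element, and HSPA1A and HSPA1B are the classical inducible pair. The sequences are RefSeq's for build GRCh38.p14, at chr1:161524290-161524539 (plus strand) for HSPA6, chr11:123062137-123062386 (minus strand) for HSPA8, chr7:157336754-157337003 (plus strand) for DNAJB6, chr6:31815293-31815542 (plus strand) for HSPA1A and chr6:31827488-31827737 (plus strand) for HSPA1B. They run 5′ to 3′ in the direction of the gene, and capitals mark each match to GAANNTTC or TTCNNGAA.
HSPA6: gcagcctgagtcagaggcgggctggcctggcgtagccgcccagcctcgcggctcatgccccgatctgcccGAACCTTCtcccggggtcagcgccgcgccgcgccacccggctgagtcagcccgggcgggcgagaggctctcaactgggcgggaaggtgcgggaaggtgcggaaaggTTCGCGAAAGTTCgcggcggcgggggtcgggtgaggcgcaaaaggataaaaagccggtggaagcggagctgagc
HSPA8: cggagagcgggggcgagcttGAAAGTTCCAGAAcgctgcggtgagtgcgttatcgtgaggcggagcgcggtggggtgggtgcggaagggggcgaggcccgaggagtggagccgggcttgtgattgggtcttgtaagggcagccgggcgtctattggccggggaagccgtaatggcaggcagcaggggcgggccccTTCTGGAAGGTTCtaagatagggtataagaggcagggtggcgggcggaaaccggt
DNAJB6: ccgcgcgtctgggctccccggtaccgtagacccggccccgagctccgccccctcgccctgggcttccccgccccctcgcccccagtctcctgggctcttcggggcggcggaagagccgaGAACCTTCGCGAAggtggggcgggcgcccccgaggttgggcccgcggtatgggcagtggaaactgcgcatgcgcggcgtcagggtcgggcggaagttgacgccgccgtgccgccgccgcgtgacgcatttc
HSPA1A: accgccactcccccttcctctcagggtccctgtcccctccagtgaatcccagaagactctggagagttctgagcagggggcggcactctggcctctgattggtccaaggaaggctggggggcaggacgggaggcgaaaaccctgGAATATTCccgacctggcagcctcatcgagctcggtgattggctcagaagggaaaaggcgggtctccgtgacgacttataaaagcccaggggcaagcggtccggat
HSPA1B: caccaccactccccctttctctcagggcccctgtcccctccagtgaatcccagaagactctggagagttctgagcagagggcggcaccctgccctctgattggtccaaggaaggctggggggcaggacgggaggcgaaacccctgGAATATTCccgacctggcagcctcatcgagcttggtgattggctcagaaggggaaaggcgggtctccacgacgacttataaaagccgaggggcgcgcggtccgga

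Each of these motifs is its own reverse complement, so a search of 1 strand covers both. In a run of 3 alternating units a GAANNTTC and a TTCNNGAA overlap, and such a run was counted on either strand. Of the 80 members, 68 matched a RefSeq promoter by gene ID, and 14 of these (20.6%) held at least 1 match, against 11.7% of 27305 promoters of the same length. The run of 3 units was in 3 members, HSPA6, HSPA8 and DNAJB6, and in 0.439% of all promoters. HSPA8 held it at 2 places. A match was present for 5 of 13 genes of the heat-inducible list described below and for 1 of 14 constitutive genes with a promoter, which was HSPA8. Over 251 aligned positions the HSPA1A and HSPA1B stretches were 93.6% identical. A match is a run of letters and not evidence of HSF1 binding, and elements farther away or with mismatches were not searched.

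Of the 80 members, 59 were detected (detection p-value under 0.01) on at least 1 array, 57 of them on both. Of the 126 probes, 73 were detected on both arrays, 4 on 1 and 49 on neither. Where several probes of a gene were detected, the brightest stands for the gene. Differences are shLY6E minus shCtrl in normalized log2 intensity, after background correction with an offset of 16 and quantile normalization. A gene detected on 1 array has a bound, written "at least". The shCtrl array was the brighter one for most genes. Detected genes of the whole array had a median ratio of deposited intensities of 0.725, and the members 0.739. In the deposited intensities 3 of 59 members (5.08%) were higher in shLY6E, namely HSPA6, HSPA7 and DNAJC11, against 5.22% of all detected genes.

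LY6E itself, which checks the labels, had an intensity of 253 in shLY6E and 1049 in shCtrl, a difference of -1.88. All 9 monocytic markers with a named probe (CD68, LYZ, SPI1, CEBPA, CSF1R, ITGAM, PTPRC, FCGR1A and MPO) were detected on both arrays. Of the T cell, epithelial and erythroid markers, 0 of 3, 0 of 4 and 0 of 1 were detected. The B cell gene CD79A was just detected in shLY6E, at 112 against 126 in shCtrl, and MS4A1 was not. Among genes with several probes detected on both arrays (2254 genes), the SD of the difference between probes of 1 gene was 0.28, which is the only spread these arrays give.

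As families, the chaperone genes differed little between the derivatives, and a few single genes stood far out. HSPA6, an HSP70 gene listed as heat-inducible, was 5.78-fold higher in shLY6E, and HSPA7 was 2.39-fold higher. Their ratios of deposited intensities were 2.26 and 1.11, and without background correction the differences were 1.54 and 0.44, the latter under 1.5-fold. HSPA2, an HSP70 gene best known from the testis, was at least 2.84-fold lower, and DNAJC9, BAG3 and HSPA14 were 2.27-fold, 2.21-fold and 2.14-fold lower. Of the 12 detected genes listed as heat-inducible, the 10 besides HSPA6 and BAG3 lay between -0.49 and 0.28. Among these, HSPA1A, HSPA1B, DNAJB1, HSPH1 and HSP90AA1 lay between -0.38 and 0.07. In all, a level at least 1.5-fold higher was found for 4 of 59 members (6.78%), and one at least 1.5-fold lower for another 4 (6.78%). HSPA2 entered through shCtrl alone. Where detection on both arrays was required, 3 of 57 members were lower, against 9.67% of all genes so detected. Without background correction HSPA2 stood at -0.54, under 1.5-fold. Of all 10565 detected genes 6.55% were that much higher and 9.63% that much lower, so the members' shares at 1.5-fold were near the background. At 2-fold, 2 of 59 members were higher, against 2.27% of all detected genes. Lower by 2-fold were 4 of 59 (6.78%), against 2.55%, and 3 of these 4 lie on chromosome 10. The median over the 59 members was -0.03, with quartiles of -0.20 and 0.22, beside -0.04, -0.29 and 0.19 over all detected genes.

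**Figure D1:**
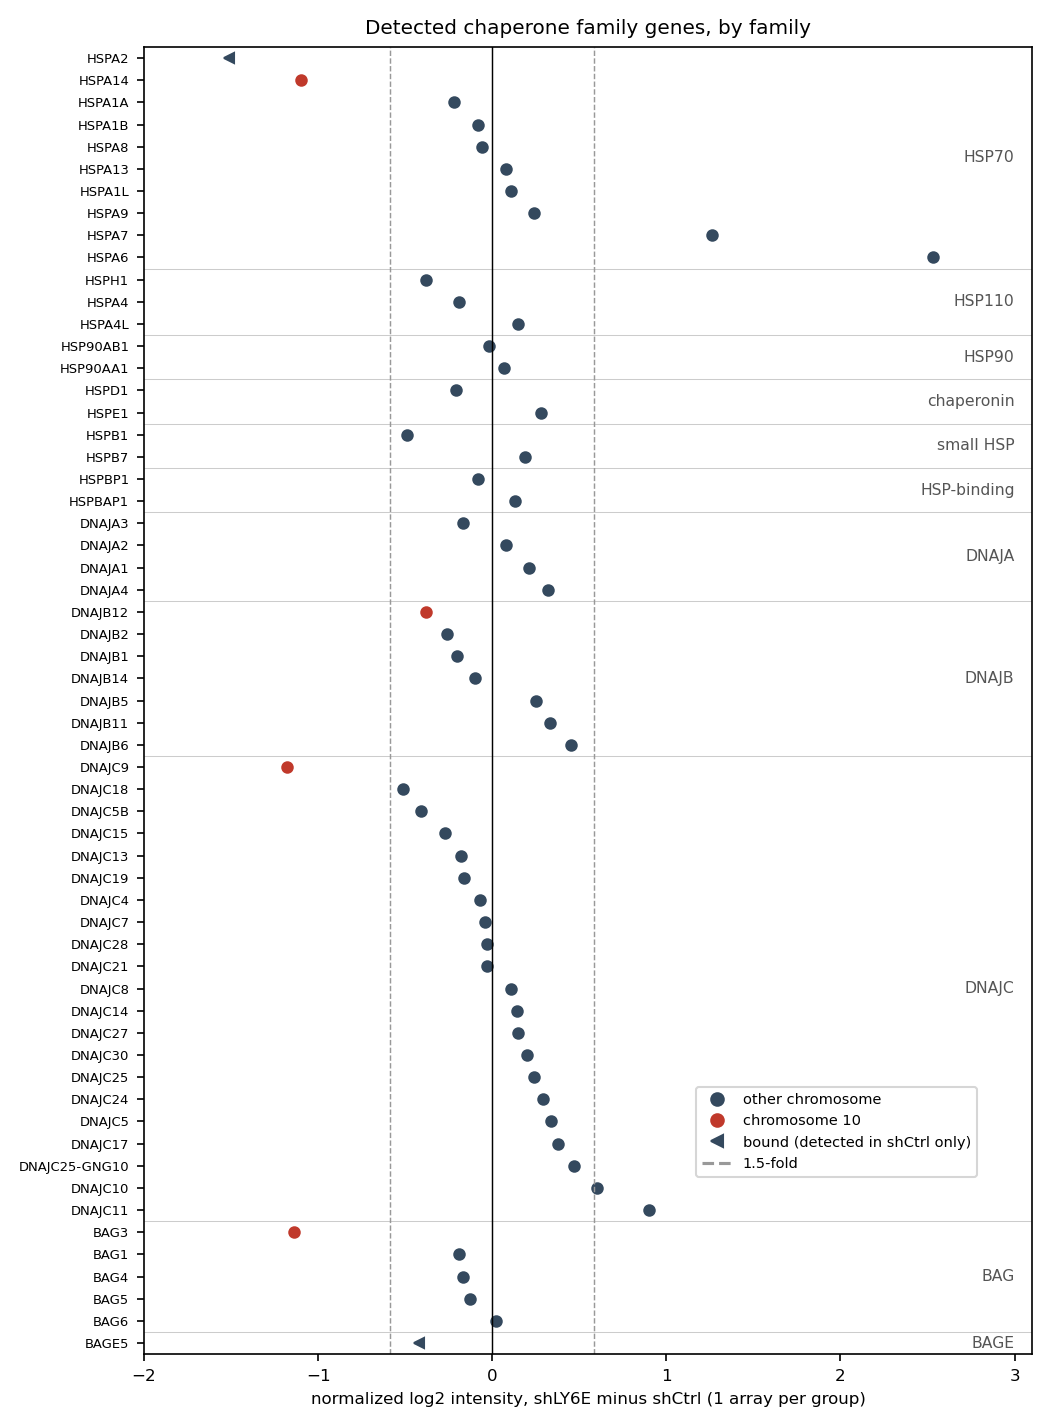
Difference in normalized log2 intensity, shLY6E minus shCtrl, for each of the 59 detected members, grouped by family on the vertical axis, with 1 point per gene, triangles for bounds, red for chromosome 10 and dashed lines at 1.5-fold. Most points lie between the dashed lines; HSPA6 (2.53) and HSPA7 (1.26) lie far to the right, and HSPA2 (-1.51) and 3 red points (-1.18 to -1.10) far to the left.

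The HSP70 family held the widest range. Among its 10 detected members 2 were at least 1.5-fold higher and 2 lower (20% each), against 6.55% and 9.63% of all detected genes. HSPA6, on chromosome 1, read 382 in shLY6E and 169 in shCtrl, or 8.58 and 6.05 after normalization, a difference of 2.53. Its other probe read 164 in shLY6E and 114 in shCtrl, where it was not detected, and gave a bound of 1.68. Both probes of HSPA6 thus stood higher in shLY6E, and in the authors' processed intensities the first read 372 against 53.5. HSPA7, a close relative of HSPA6 that is usually annotated as a pseudogene, read 144 in shLY6E and 129 in shCtrl, where the lowest detected intensity was 129. Its probe may also read HSPA6 transcripts, so HSPA7 may not be a separate reading, and its difference of 1.26 rests on a control value at the detection limit.

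HSPA2, on chromosome 14, was detected in shCtrl only. It read 101 in shLY6E (detection p-value 0.0727) and 203 in shCtrl, which gives a bound of -1.51. The other probe, at 87.2 and 140, gave a bound of -0.34. Both probes were thus lower in shLY6E, by sizes that differ, and the mean over them was -0.92. HSPA14, an HSP70-type gene whose product works with a J-protein on ribosomes, read 249 in shLY6E and 642 in shCtrl, a difference of -1.10.

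The housekeeping and classical members of the family were nearly level. HSPA8, the constitutive cytosolic HSP70, read 5660 in shLY6E and 7678 in shCtrl, which normalized to 12.65 and 12.71, a difference of -0.06. Its other probe gave 0.06. HSPA1B read 423 and 644 (-0.08), and HSPA1A read 112 and 147 (-0.22). The 2 genes encode nearly the same protein, so their probes may read each other's transcripts and the values are uncertain. HSPA9, the mitochondrial HSP70 known as mortalin, stood at 0.24, HSPA1L at 0.11 and HSPA13, of the microsomal fraction, at 0.08. HSPA12A and HSPA12B were not detected.

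Of the 13 genes listed as heat-inducible, 12 were detected. HSPA6 was the 1 gene past 1.5-fold in the higher direction, BAG3 the 1 gene past it in the lower, and 10 lay between. The share was 8.33% either way, against 6.55% higher and 9.63% lower of all detected genes. The list median was -0.14, or -0.20 without HSPA6. The small heat shock protein gene HSPB1 read 2409 in shLY6E and 4571 in shCtrl, a difference of -0.49. HSPH1, the inducible HSP110, read 671 and 1232 (-0.38), and DNAJB1, the inducible J-protein partner of HSP70, read 481 and 789 (-0.20). Of the 12 genes, 5 lay above 0 and 7 below. HSP90AA1, the inducible HSP90, was at 0.07 by 1 probe and 0.03 by the other, HSPA4L at 0.15 and DNAJA1 at 0.21. DNAJB4 was not detected. HSF1 itself was at 0.04, close to the detection limit at 113 and 138.

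Of the 15 genes listed as constitutive, 14 were detected, with a median of -0.03. One (1 gene, 7.14%), HSPA14, was at least 1.5-fold lower, 0 were at least 1.5-fold higher, and the other 13 lay between -0.38 and 0.34. Of all detected genes 9.63% were that much lower and 6.55% that much higher. HSP90AB1, the constitutive HSP90, read 3168 in shLY6E and 4338 in shCtrl (-0.02). HSPA4, a constitutive HSP110, gave -0.19 by its brighter probe and -0.54 by the other. DNAJA2 stood at 0.08, DNAJA3 at -0.17, DNAJC7, a J-protein with repeats that bind HSP70 and HSP90, at -0.04, DNAJC8, linked to splicing, at 0.11 and DNAJC21, of ribosome maturation, at -0.03. DNAJC5, the cysteine string protein of secretory vesicles, was at 0.34. DNAJC2, the ribosomal J-protein that pairs with HSPA14, was not detected. Relative to the median of all detected genes, the inducible and constitutive medians were -0.10 and 0.01, a gap that 1 array per group cannot test.

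**Figure D2:**
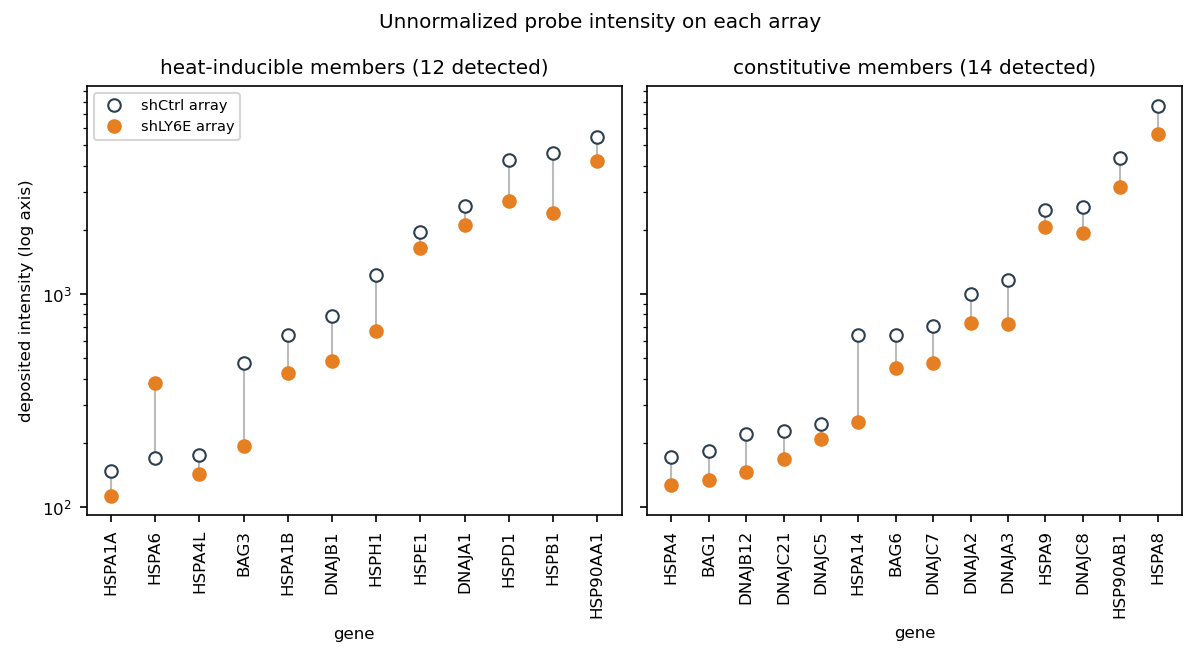
Deposited, unnormalized intensity (log axis) of the detected heat-inducible members (left, 12 genes) and constitutive members (right, 14 genes), with open points for the shCtrl array and filled points for the shLY6E array; genes are ordered by the shCtrl value, and heights can be compared within a gene only. The shCtrl point is the upper one for every gene except HSPA6 (169 against 382), and the gap is wide for BAG3 and HSPA14.

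Among 44 J-protein genes 32 were detected, with a median of 0.09. Of these 2 (6.25%) were at least 1.5-fold higher and 1 (3.12%) lower, against 6.55% and 9.63% of all detected genes. DNAJC9, a J-protein that also escorts histones, read 552 in shLY6E and 1694 in shCtrl, a difference of -1.18. DNAJC11, a mitochondrial J-protein linked to cristae, read 187 and 177 (0.90), and DNAJC10, a disulphide reductase of the endoplasmic reticulum, read 214 and 224 (0.60). For these last 2 genes the deposited intensities were nearly equal on the arrays, and both fell short of 1.5-fold without background correction (0.45 and 0.35) and with median scaling (0.50 and 0.18). DNAJC10 is the member that only just passed 1.5-fold (0.58 on the log2 scale). Just short of it were DNAJC25-GNG10 at 0.47, a read-through symbol that shares sequence with DNAJC25 (0.24), DNAJB6 at 0.45 and DNAJC17 at 0.38.

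On the lower side DNAJC18 (-0.51), HSPB1 (-0.49) and BAGE5 (at least -0.42, detected in shCtrl only) came nearest to 1.5-fold without reaching it. DNAJC18 read 108 in shLY6E, close to the lowest detected intensity there, 106. Without background correction DNAJC18 and BAGE5 stood at -0.15 and -0.12, and HSPB1 at -0.47. DNAJC5B stood at -0.41, with 112 in shLY6E and 155 in shCtrl. All 4 DNAJA genes lay between -0.17 and 0.32, the highest being DNAJA4, and the 7 detected DNAJB genes between -0.38 and 0.45. DNAJB6, known for holding back polyglutamine aggregation, gave 0.45 by 1 probe and -0.19 by the other. Of the neuronal and membrane-bound DNAJB genes, DNAJB2 was at -0.26 and DNAJB14 at -0.10, and DNAJB5 was at 0.25 close to the detection limit. The remaining DNAJC genes were near 0: DNAJC13, of endosomes, at -0.18, DNAJC4 at -0.07, DNAJC28 at -0.03, DNAJC14 at 0.14, DNAJC27 at 0.15 and DNAJC24, of diphthamide synthesis, at 0.29.

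The mitochondrial list had all of its 8 genes detected and a median of 0.02. DNAJC11 was the 1 gene (12.5%) past 1.5-fold, in the higher direction, against 6.55% of all detected genes. HSPD1 and HSPE1 encode the chaperonin and its lid and are transcribed in opposite directions from starts 105 bases apart in the RefSeq annotation. By their brightest probes HSPD1 stood at -0.21 (2721 in shLY6E and 4255 in shCtrl) and HSPE1 at 0.28 (1643 and 1956). Their other probes did not agree on a sign. HSPD1 gave 0.16 by another probe and 1.28 by a further one, which read 296 in shLY6E and 227 in shCtrl, and HSPE1 gave -0.16. DNAJC15 and DNAJC19, of the protein import motor, were at -0.27 and -0.16, and DNAJC30 was at 0.20.

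Of the 4 genes listed for the endoplasmic reticulum, 3 were detected and all lay above 0, between 0.08 and 0.60. Of all 10538 detected genes with a value, 4775 lay above 0. The lowest of the 3, HSPA13, was close to the detection limit at 109 in shLY6E and 131 in shCtrl. The list does not hold DNAJB12, of the endoplasmic reticulum membrane, which was at -0.38. DNAJB11, a lumenal J-protein, was at 0.33 with 1352 in shLY6E and 1579 in shCtrl. With median scaling DNAJB11, HSPA13 and DNAJC10 stood at -0.11, -0.09 and 0.18, where the median of all detected genes was -0.43. The genes left out of the members by rule, which belong to the unfolded protein response, did not share a direction: HSPA5, the lumenal HSP70, was at 0.16, DNAJC3 at -0.08 and DNAJB9 at -0.28.

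Among the 6 BAG genes, several of whose products release clients from HSP70, 5 were detected. BAG3, the stress-induced member that directs clients to autophagy, read 193 in shLY6E and 473 in shCtrl, a difference of -1.14. The others were within 1.5-fold: BAG1 at -0.19, BAG4 at -0.17, BAG5 at -0.13 and BAG6, which guards membrane proteins before insertion, at 0.02. HSPBP1, an exchange factor of HSP70, gave -0.08 by 1 probe and 0.36 by the other, and HSPBAP1, a partner of HSPB1, stood at 0.13. Of 7 small heat shock protein genes, HSPB1 and HSPB7 (0.19) were detected and HSPB2, HSPB3, HSPB6, HSPB8 and HSPB9 were not.

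Chromosome 10 carries 7 of the members. Of these HSPA14, DNAJB12, DNAJC9 and BAG3 were detected, and all 4 were lower in shLY6E. They include 3 of the 4 members at least 1.5-fold lower. DNAJB12, a J-protein of the endoplasmic reticulum membrane that faces the cytosol, was at -0.38 by the probe that stands for it and at -0.63, -0.63 and -0.95 by its other detected probes. As the mean over its probes it stood at -0.65, past 1.5-fold. With means over probes 5 of 59 members were lower, against 8.87% of all detected genes. Of all 398 detected genes of chromosome 10, 60.6% were at least 1.5-fold lower, their median was -0.72 and their quartiles were -1.05 and -0.32. DNAJC9, BAG3 and HSPA14 lay just below that lower quartile. How far the lower level of chromosome 10 as a whole accounts for these members was not tested. Outside chromosome 10 there were 55 detected members, 4 of them higher by at least 1.5-fold and 1, HSPA2, lower, against 6.75% and 7.63% of detected genes there, and the members' median was 0.02. DNAJC1, DNAJC12 and HSPA12A, also on chromosome 10, were not detected.

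Several detected probes read 15 of the members, and for 7 of these (BAG5, BAG6, DNAJB6, HSPA8, HSPBP1, HSPD1 and HSPE1) the probes disagreed in sign. How often probes disagree in sign over all genes of the array was not counted. The median distance between the highest and lowest probe of a gene was 0.34. Differences of the size seen for most members are therefore within what probes of 1 gene show on the same arrays. The distance was largest for HSPD1 (1.49), HSPA2 (1.17) and HSPA6 (0.85), and for the last 2 all probes kept the same side of 0.

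**Figure D3:**
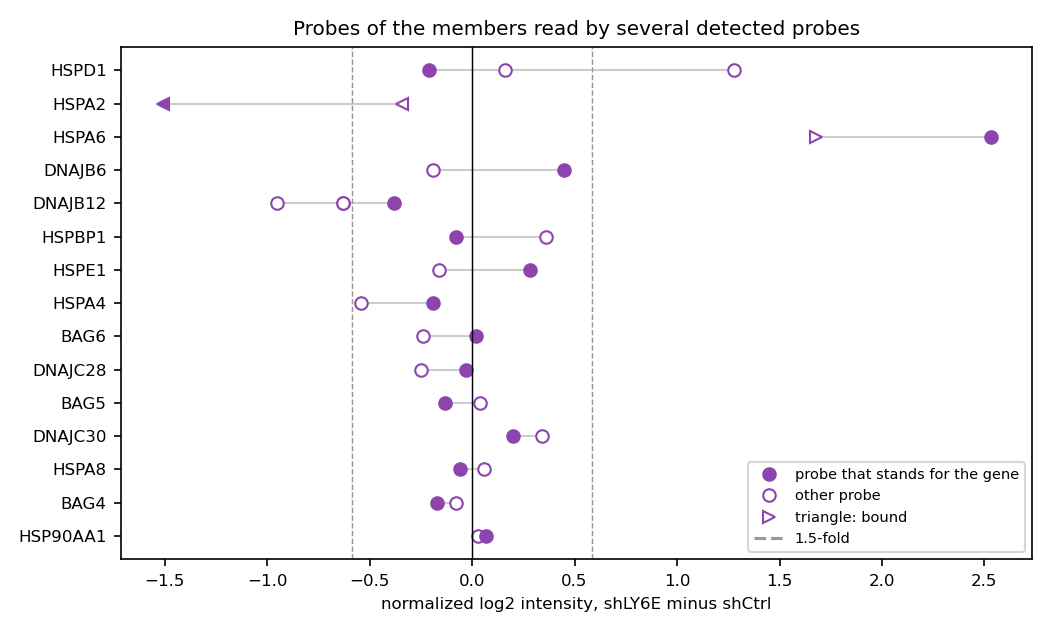
Difference in normalized log2 intensity, shLY6E minus shCtrl, of every detected probe of the 15 members read by several probes, with 1 row per gene, filled points for the probe that stands for the gene, open points for the others, triangles for bounds and dashed lines at 1.5-fold. Both HSPA6 probes lie right of the dashed line (1.68 and 2.53), all 4 detected DNAJB12 probes lie left of 0, and the HSPD1 probes run from -0.21 to 1.28.

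The 33 partner genes of the chaperone machinery also differed little as a group. Of 28 with a value, 1 (3.57%) was at least 1.5-fold higher, TCP1, and 1 (3.57%) lower, CCT5, with a median of -0.10. Of all detected genes 6.55% were that much higher and 9.63% that much lower. TCP1 and CCT5 both encode subunits of the same cytosolic chaperonin ring, TRiC. TCP1 read 589 in shLY6E and 572 in shCtrl (0.69), CCT5 read 114 and 183 (-0.85), and the other 6 subunits lay between -0.31 and 0.38. The other probes of TCP1 gave 0.65 and -0.39, so that their signs differed, and TCP1 was under 1.5-fold as the mean over probes (0.32) and with median scaling (0.21). CCT5 was under 1.5-fold without background correction (-0.31) and with an offset of 50 (-0.53). SERPINH1, the heat-inducible collagen chaperone, was at -0.58, and STIP1, which links HSP70 to HSP90, at -0.20. STUB1, the ubiquitin ligase that acts on HSP70 clients, was at -0.43 and the kinase adaptor CDC37 at 0.17. The small heat shock protein gene CRYAB and the disaggregase gene CLPB were not detected.

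The remaining 21 members were not detected on either array. Besides those already named they are BAG2, BAGE2, DNAJB3, DNAJB7, DNAJB8, DNAJB13, DNAJC5G, DNAJC6, DNAJC16 and DNAJC22. The lowest detection p-value among their probes was 0.0143, and the highest intensity was 126.5, so their levels are bounded by the background and no difference is given.

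**Figure D4:**
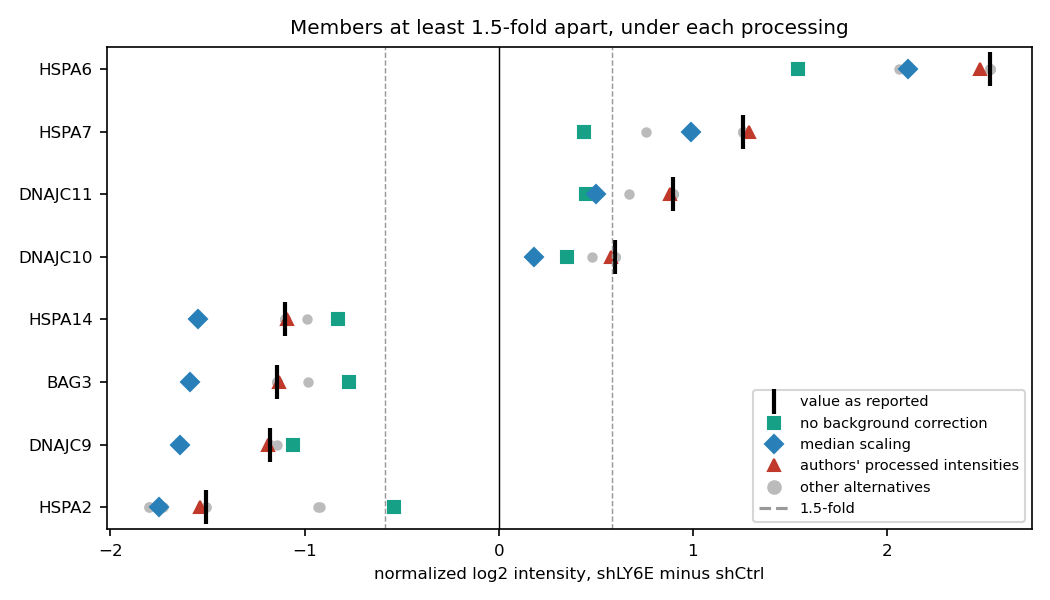
Difference in normalized log2 intensity, shLY6E minus shCtrl, of the 8 members at least 1.5-fold apart, recomputed under each alternative processing, with a black bar for the value as reported, coloured symbols for 3 alternatives, grey points for the others and dashed lines at 1.5-fold. HSPA6 stays between 1.54 and 2.53 and the chromosome 10 genes stay left of the dashed line, while DNAJC10, DNAJC11, HSPA7 and HSPA2 fall inside it without background correction (0.35, 0.45, 0.44 and -0.54).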

How the data were processed

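Per the file headers, 1 deposited table holds unnormalized intensity and detection p-values of every probe. From the values, the intensity is linear with no value below 0, with medians of 97.5 (shLY6E) and 116 (shCtrl). A second deposited table held the authors' processed intensities, which from the values were background-subtracted (25.5% below 0) and set to a common median of 6.14. How the authors made either table is not given in the sources used. No column lacked a sample (0 columns).

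Intensities were corrected with normexp through the detection p-values (offset 16), quantile-normalized and taken to log2 (limma 3.58.1, R 4.3.3; Python 3.11.15, pandas 2.3.3). Of 47321 probes, 34.6% (shLY6E) and 34.4% (shCtrl) were detected at a p-value under 0.01. Probes were named through the platform annotation (30113 with 1 symbol, 8 with several, 17200 with none). A gene detected on 1 array is compared with the lowest detected level on the other, or with its own level there if that is higher; 27 such genes had no fold. The steps were also run on simulated arrays in which only some brighter probes were changed. That run does not show how differences of dim genes, or of a whole shifted chromosome, come through. No test was possible with 1 array per group. The thresholds were 1.5-fold and 2-fold, and 11 alternatives were run.

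The members and lists were chosen with earlier results of these data known. Named by rule were LY6E, members at least 1.5-fold apart or nearest to it, members of the 4 lists, those whose probes disagree in sign, partners at least 1.5-fold apart, and HSPA5, DNAJB9 and DNAJC3; other names were chosen after their values were seen.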

Additional observations from a re-analysis of the deposited data

How the results depend on the processing

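HSPA6, BAG3, DNAJC9, HSPA14 and LY6E kept their direction and stayed at least 1.5-fold apart under every alternative that gave them a value (HSPA6 from 1.54 to 2.53, LY6E from -2.32 to -1.50), and 0 named genes past 1.5-fold turned to the other direction. Without background correction, which shrinks differences by construction, 1 of 59 members (HSPA6) was at least 1.5-fold higher and 3 were lower. Of all detected genes 2.65% were that much higher and 3.15% lower. HSPA7, DNAJC11, DNAJC10 and HSPA2 then stood at 0.44, 0.45, 0.35 and -0.54. Median scaling moved the median of all detected genes to -0.43. With it the medians of all, heat-inducible, constitutive and mitochondrial members moved to -0.39, -0.50, -0.45 and -0.34. Of 59 members 2 were then higher and 16 lower, against 2.49% and 33.8% of all detected genes. Relative to that shift the members' median was 0.04, with 5 higher and 4 lower. The shares of all genes relative to the shift were not computed. As the mean over probes the heat-inducible and mitochondrial medians were -0.01 and 0.15, and DNAJB12 was at least 1.5-fold lower (-0.65). Without chromosome 10 the median of all members was 0.02. There 1 of 55 members was lower, against 7.63% of detected genes outside that chromosome. DNAJC9, BAG3 and HSPA14, 3 of the 4 lower members, lie on that chromosome and were not counted. For the other changes the cause was not tested. Signal over background limits dim genes: HSPA13 and DNAJB5 lay close to the lowest detected intensities on both arrays (106 in shLY6E and 129 in shCtrl) and HSPA7 in the control. DNAJC18, DNAJC5B and HSPA1A were dim in shLY6E, at 108, 112 and 112. No paired analysis was possible because there was a single array of either derivative.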

Other observations

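HSPA6 and HSPA7 lie on chromosome 1 among Fc gamma receptor genes, with 1 named gene of the array, FCGR3A, between them. These neighbours were picked with the values already known. Of the 11 other genes within 5 places of the pair in the reference order, 6 were detected, with differences from -0.41 to 1.66 and a median of 0.26. FCGR2B, an inhibitory receptor for immunoglobulin G, read 261 in shLY6E and 177 in shCtrl (1.66), and FCGR2A, an activating one, read 966 and 1058 (0.42). FCGR3A was at -0.41, FCGR3B at 0.28, SDHC at 0.24 and FCRLB at 0.18. The receptor genes are close copies of one another and their probes may read several of them, so these values are uncertain. HSPA6 stood above all 6, and no further test was made.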
